A study of Mus musculus with 32 samples.

Results

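The core circadian clock was followed here through 10 genes: the activators Arntl (BMAL1), Clock and Npas2, the repressors Per1, Per2 and Per3, the nuclear receptors Nr1d1 and Nr1d2 (REV-ERBα and REV-ERBβ), and the output factors Dbp and Tef. They were chosen by symbol, and each of the 10 was found once among the 22337 genes of both deposited tables. RNA had been sequenced from 32 samples of 6-month-old male mice on a C57BL/6J background, each sample from 1 mouse. WT mice were littermates without the transgenes, and 5xFAD mice carry human transgenes with familial Alzheimer mutations under the Thy1 promoter, which is active mainly in neurons. The third group (5xFAD+L) was 5xFAD mice that had received near-infrared light through the shaved scalp in repeated short sessions under anaesthesia, and the untreated mice had been anaesthetised and shaved in the same way under indoor lighting. Hippocampus was taken from 4 mice of each group, whole meninges from 4 WT, 3 5xFAD and 3 5xFAD+L mice, and meningeal lymphatic endothelial cells (mLEC), sorted as CD45-negative cells carrying CD31 and podoplanin, from 4, 3 and 3 such mice. The animals lived under a daily light and dark cycle, and the hour at which each tissue was taken is not given in the sources used here. Clock transcripts change over the day, so group and hour of collection cannot be told apart in any comparison below.

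In the clock, ARNTL pairs with CLOCK or its relative NPAS2 and switches on genes that carry an E-box, among them the Per, Cry, Nr1d and Dbp genes. PER and CRY proteins then shut ARNTL and its partner down, and NR1D1 and NR1D2 repress Arntl at ROR elements (RORE), so that Arntl peaks when Nr1d1 and Dbp are low. DBP and TEF are output factors that act on D-boxes, and the hippocampus, meninges and endothelium are all known to hold such clocks outside the suprachiasmatic pacemaker. Per1 and Per2 also respond directly to glucocorticoids and to neuronal activity.

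On GRCm38 the GENCODE vM21 annotation places the activators at chr7:113207465-113314126 (Arntl), chr5:76209868-76304792 (Clock) and chr1:39193731-39363236 (Npas2). Per1 lies at chr11:69095217-69109960, Per2 at chr1:91415982-91459324 and Per3 at chr4:151003652-151044665. Nr1d1 lies at chr11:98767932-98775333, Nr1d2 at chr14:18204054-18239127, Dbp at chr7:45705088-45710203 and Tef at chr15:81802421-81826863.

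RefSeq promoter windows on GRCm38.p6, each of 250 bases before and 50 bases from a transcription start, were at hand for 9 of the 10 genes, all but Per2, and came to 14 windows. The search on both strands used CACGTG for the E-box, TTATGTAA and TTACGTAA for the D-box, TAGGTCA and TGGGTCA for the core of the RORE, and TGACGTCA for the cAMP response element. An E-box was in 3 of the 14 windows (Per1 and both starts of Tef), against 7.15% of all 32851 mouse windows of that length. A D-box was in 1 window (Per3), against 1.06% of all windows, and a RORE core was in 1 (Arntl), against 6.45%. No window of these genes held the cAMP response element, which was in 1.79% of all windows. The stretches that carry these letters are shown as matches to the motifs only. The windows of Nr1d1, Nr1d2 and Dbp held no E-box. Capitals mark the motif, and each stretch reads 5′ to 3′ on the strand of its gene.
Per1, chr11:69098763-69098808, plus strand: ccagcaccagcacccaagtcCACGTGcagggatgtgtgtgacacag
Tef, chr15:81802526-81802571, plus strand: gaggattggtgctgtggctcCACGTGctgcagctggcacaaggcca
Tef, second start, chr15:81811256-81811301, plus strand: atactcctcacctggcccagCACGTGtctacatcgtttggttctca
Per3, chr4:151044796-151044890, minus strand: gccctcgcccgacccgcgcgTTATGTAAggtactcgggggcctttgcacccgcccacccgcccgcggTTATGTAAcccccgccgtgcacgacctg
Arntl, chr7:113207531-113207560, plus strand: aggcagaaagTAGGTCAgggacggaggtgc
The Per3 stretch holds the D-box letters at 2 places, 205 and 158 bases before the start. The Arntl stretch lies in the first exon, and its RORE core begins 30 bases after the start. A match is a description of these letters and says nothing of binding in these tissues.

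Levels were compared in FPKM, the deposited values scaled to transcript length and library size. Changes were tested on the rounded deposited counts by the quasi-likelihood method of edgeR, fitting all 3 groups of each tissue together, with Benjamini-Hochberg adjustment over all genes tested. A gene was tested in a tissue when its FPKM reached 1 in at least 3 samples, and was called at an adjusted p below 0.05. Hippocampal libraries held 13952825 to 23856476 counts, meningeal ones 6601143 to 14708202 and mLEC ones 14231415 to 24207326. All 10 clock genes were tested in hippocampus and in meninges. In mLEC 8 were tested, Npas2 and Per2 being under the filter. In hippocampus the clock genes rested on a median of 259.5 (Npas2) to 2695.5 (Tef) counts per library, and in meninges Npas2 rested on only 7 to 67 counts.

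In WT hippocampus the REV-ERBα gene Nr1d1 was the most abundant of the 10, at a mean of 38.5 FPKM, followed by Tef at 34.0 and Per1 at 24.0. Dbp at 12.7, Nr1d2 at 11.4 and Arntl at 10.98 formed a middle group, and Per3 at 6.87, Clock at 4.89, Npas2 at 4.52 and Per2 at 4.22 were lowest. Neighbours in this order overlapped in their ranges over 4 mice except at 2 steps, from Per1 to Dbp and from Arntl to Per3. In WT meninges Nr1d1 again led at 41.6 FPKM, then Per1 at 35.8, Dbp at 30.2, Tef at 20.5, Nr1d2 at 13.6, Per3 at 9.96, Arntl at 6.39, Clock at 5.04, Per2 at 1.81 and Npas2 at 0.613. There the step from Clock to Per2 was the only one without overlap.

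Between these 2 tissues of WT mice, 5 of the 10 clock genes were called, against 73% of the 15132 genes tested, and the ranges of 4 did not overlap, against 64.9% of all genes. The activators Npas2 and Arntl, the repressor Per2 and the output gene Tef were lower in meninges, and Dbp was higher. Npas2, a CLOCK relative best known from forebrain neurons, was lower by -3.18 on the log2 scale (SE 0.52, adjusted p = 1.66e-05), lying at 0.200 to 1.34 FPKM in meninges and 4.01 to 5.81 FPKM in hippocampus. Per2 differed by -1.31 (SE 0.37, adjusted p = 0.00343), Arntl by -0.89 (SE 0.21, adjusted p = 0.000666) and Tef by -0.78 (SE 0.24, adjusted p = 0.00619). Dbp differed by 0.91 (SE 0.31, adjusted p = 0.0123), with 18.9 to 38.4 FPKM in meninges above 9.05 to 14.2 FPKM in hippocampus. Without WT meninges replicate 4 the adjusted p of Dbp was 0.0532. The other 5, Clock, Nr1d1, Nr1d2, Per1 and Per3, had adjusted p-values of 0.0855 to 0.911. Of 18 further clock genes (cryptochromes, ROR receptors, kinases and other regulators), 6 were called higher and 6 lower in meninges. Among them Nfil3, a repressor at D-boxes, differed by 1.92 (SE 0.32, adjusted p = 2e-05) and Cry2, a cryptochrome repressor, by -1.41 (SE 0.18, adjusted p = 5.47e-07). Markers of both tissues were where the labels put them: the 5 neuron markers summed to 1381 to 1910 FPKM in hippocampus and 79.0 to 456 FPKM in meninges, and the 6 leptomeningeal fibroblast markers to 6.58 to 107 and 980 to 2159 FPKM. The meninges also held choroid plexus markers (15710 to 49556 FPKM over 5 genes) and pineal markers (82.3 to 755 FPKM over 5 genes), and in bulk tissue fewer cells of a type and less RNA per cell cannot be told apart.

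In the hippocampus of untreated 5xFAD mice, Arntl was the only clock gene called, and it was lower than in WT. Its level was 12.1, 10.8, 11.2 and 9.78 FPKM in the 4 WT mice and 7.54, 8.07, 8.49 and 8.73 FPKM in the 4 untreated 5xFAD mice. Every 5xFAD mouse lay below every WT mouse, and the means were 10.98 ± 0.964 and 8.21 ± 0.522 FPKM (SD, n = 4 each). The fitted change was -0.41 on the log2 scale (SE 0.10, adjusted p = 0.0192). This was 1 of 10 clock genes called, against 8.54% of the 12981 genes tested in hippocampus, and 1 of 10 without overlap, against 14.5% of all genes. Neither count set the clock genes apart from all genes. The call was lost without WT replicate 1 (adjusted p = 0.0678), without WT replicate 3 (0.0591) and in a fit without the 3 libraries richest in choroid plexus markers (0.172, change -0.38). The 3 libraries left out there were 5xFAD replicates 1 and 2 and WT replicate 2.

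The other 9 clock genes had no unadjusted p below 0.05 in this comparison, with fitted changes from -0.33 for Per2 to 0.20 for Dbp. The median change over the 10 was -0.15, beside 0.01 over all genes tested. Untreated 5xFAD hippocampus varied more between mice than the other groups: the mean rank correlation of a library with its own group was 0.946 to 0.969, against 0.987 to 0.989 in WT and 0.978 to 0.982 in 5xFAD+L. Replicate 3 of that group held the highest Dbp (26.2 FPKM), Npas2 (6.84), Per1 (33.0) and Per3 (10.2) of all 12 hippocampi, and replicate 1 the lowest Dbp (6.98), Per1 (12.1), Per3 (3.91) and Tef (16.6). For those genes the WT values lay inside the spread of the 4 untreated 5xFAD mice, apart from Tef, for which 3 WT mice lay above it. The 5 neuron markers summed to 1748 to 1910 FPKM in WT and 1381 to 1835 FPKM in untreated 5xFAD mice, and the 4 astrocyte markers to 482 to 549 and 598 to 2967 FPKM. The 4 microglia markers summed to 121 to 146 and 217 to 293 FPKM. The astrocyte sum rested mainly on Gfap, with a hippocampal median of 750 FPKM, beside 146 for Slc1a2, 89.8 for Aqp4 and 27.7 for Aldh1l1. No marker of these lists was at 0 in all mice of a group, and their part in the Arntl difference was not tested.

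Among the 18 further clock genes, Cry2 was called and also fell in 5xFAD hippocampus. Its level was 45.0, 47.1, 43.7 and 49.1 FPKM in WT and 32.4, 36.6, 35.7 and 33.2 FPKM in untreated 5xFAD mice, with no overlap (change -0.42, SE 0.09, adjusted p = 0.0146). It was lost without WT replicate 4 (adjusted p = 0.056) and without the 3 libraries named above (0.116). The repressor Bhlhe41 (DEC2) had a change of 0.67, Timeless of 0.52 and the kinase gene Csnk1e of 0.34, while Wee1, a cell cycle kinase gene with E-boxes, had -0.43 and Csnk1d -0.32. These 5 had an unadjusted p below 0.05 and adjusted p-values of 0.101 to 0.183 in edgeR. Without untreated 5xFAD replicate 1 the change of Bhlhe41 was 0.23 and that of Wee1 -0.26, without replicate 3 that of Csnk1d was -0.18, and without the 3 libraries named above that of Bhlhe41 was 0.33. Csnk1e was called without untreated 5xFAD replicate 4 (adjusted p = 0.0285). Of the 8 activity genes, Fos was called higher (1.07, SE 0.29, adjusted p = 0.0377), a call lost in 12 of 20 alternatives, and of the 11 glucocorticoid-response genes Zbtb16 was called lower (-0.51, SE 0.10, adjusted p = 0.00701).

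**Figure D1:**
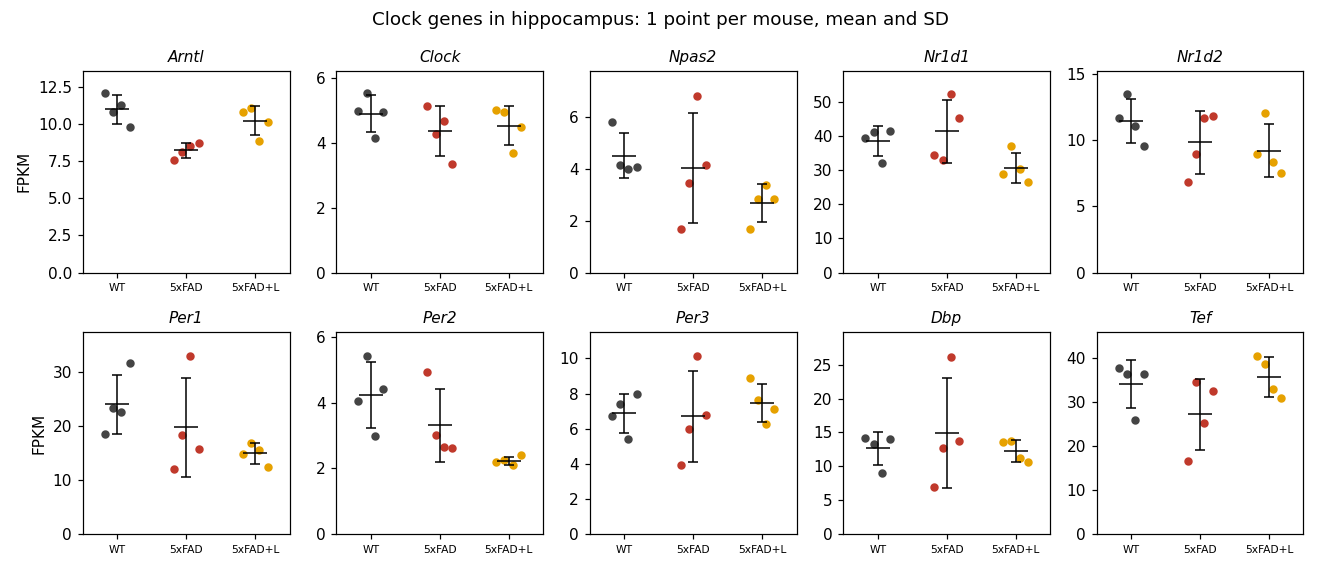
FPKM (vertical axes, from 0) of the 10 clock genes in hippocampus by group (WT, 5xFAD without light, 5xFAD+L with light), 1 point per mouse, with the mean and SD of 4 mice. Arntl of the 4 untreated 5xFAD mice lies below both other groups, Per2 of the 4 light-treated mice lies below both other groups at 2.11 to 2.39 FPKM, and the untreated 5xFAD mice are widely spread in Dbp, Npas2 and Per1.

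Between light-treated and untreated 5xFAD hippocampus no clock gene was called, and the 3 with the lowest p were Arntl, with a positive change, and Nr1d1 and Per2, with negative ones. Only 0.455% of the 12981 genes tested were called. Arntl was at 10.8, 11.1, 8.87 and 10.1 FPKM with light, all above the 7.54 to 8.73 FPKM of the untreated 5xFAD mice and overlapping the 9.78 to 12.1 FPKM of WT. The change was 0.32 (SE 0.10, adjusted p = 0.133 in edgeR). DESeq2 on the same counts gave 0.33 and called it (adjusted p = 0.0415), as its only clock gene, while it called 641 genes in all against 59 by edgeR.

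Nr1d1, the REV-ERBα repressor of Arntl, was at 28.8, 36.9, 30.2 and 26.5 FPKM with light and at 34.5, 33.0, 52.3 and 45.2 FPKM without. One light-treated mouse lay within the untreated range, and the change was -0.43 (SE 0.14, adjusted p = 0.150). The ratio of Nr1d1 to Arntl FPKM, which sets a repressor beside the gene it is known to repress, was 4.09 to 6.16 in untreated 5xFAD mice, 2.62 to 3.41 with light and 2.86 to 4.24 in WT. The untreated and light-treated ranges did not overlap, and WT overlapped both. Arntl alone already separated these 2 groups, so the ratio adds no separate support, and no share over all genes was counted for it. The ratio of Dbp to Arntl FPKM overlapped between all groups. It was 0.926 to 3.08 in untreated 5xFAD mice, 1.05 to 1.27 with light and 0.806 to 1.44 in WT. Exons of Nr1d1 overlap those of Thra on the opposite strand (263 of 3077 bases), those of Dbp overlap Sphk2 (539 of 2993), those of Tef Gm17597 (193 of 7867) and those of Arntl Gm45355 (33 of 7523). The strand used in counting is not stated, so reads from these stretches cannot be assigned to 1 gene.

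Per2, a repressor that also answers to glucocorticoids, was at 2.18, 2.25, 2.11 and 2.39 FPKM with light and at 4.95, 3.02, 2.64 and 2.61 FPKM without. All 4 light-treated mice were below all 4 untreated mice, with a change of -0.58 (SE 0.22, adjusted p = 0.186). The change was -0.29 without untreated 5xFAD replicate 1, the mouse with the highest level, and -0.22 without the 3 libraries richest in choroid plexus markers (adjusted p = 0.554). Arntl and Per2 were thus the 2 of 10 clock genes without overlap, against 7.63% of all genes. Npas2 had a change of -0.59 (SE 0.26, adjusted p = 0.243) and Tef of 0.40 (SE 0.18, adjusted p = 0.271). Without the same 3 libraries Npas2 was at -0.94 (adjusted p = 0.0698) and Nr1d1 at -0.66 (0.0564). Npas2 was at -0.38 without untreated 5xFAD replicate 3, and Tef at 0.23 without replicate 1. Over Per1, Per3, Dbp, Nr1d2 and Clock, changes ran from -0.41 to 0.16 with no unadjusted p below 0.05. The median over the 10 genes was -0.18, beside -0.02 over all genes.

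Further clock genes in the same contrast were Usp2 (0.49, SE 0.12, adjusted p = 0.0760), a deubiquitinase gene that oscillates with the clock, Cry2 (0.33, SE 0.09, adjusted p = 0.117), Bhlhe40 (-0.31) and Bhlhe41 (-0.58). The last 2 were at -0.14 each without 1 untreated 5xFAD mouse, replicate 3 for Bhlhe40 and replicate 1 for Bhlhe41, and at -0.49 and -0.26 without the 3 libraries richest in choroid plexus markers. None of the 18 was called by edgeR, and 2 had positive and 2 negative changes at an unadjusted p below 0.05. DESeq2 called Usp2 (adjusted p = 0.00589) and Cry2 (0.0269). Cry2 was at 42.6, 52.5, 43.2 and 37.7 FPKM with light, all above the untreated 5xFAD mice.

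Set against WT, Per2 was the only clock gene called in light-treated hippocampus, where it was lower. Npas2, given below, had a change of like size that was not called. For Per2, WT mice held 4.04, 5.43, 2.99 and 4.43 FPKM, all above the 4 light-treated mice. The means were 4.22 ± 1.01 and 2.23 ± 0.120 FPKM (SD, n = 4 each). The change of Per2 was -0.91 (SE 0.22, adjusted p = 0.0330), the only one called of the 10, against 3.59% of all genes. The call was lost without any 1 of the 4 light-treated mice or of WT replicates 1, 2 and 4, with adjusted p-values of 0.0695 to 0.110, and with limma on log2(FPKM + 1) (0.0564). Without the 3 libraries richest in choroid plexus markers it was kept (adjusted p = 0.0155). Cell markers also separated these 2 groups without overlap: neuron markers summed to 1508 to 1624 FPKM with light and 1748 to 1910 FPKM in WT, astrocyte markers to 1005 to 1362 and 482 to 549 FPKM, and microglia markers to 190 to 260 and 121 to 146 FPKM. The astrocyte sum again rested mainly on Gfap. The part of these markers in the changes of Per2, Per1 and Npas2 was not tested.

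Per1 and Npas2 likewise lay lower in all 4 light-treated mice than in all 4 WT mice. That made 3 of 10 clock genes without overlap, Per1, Per2 and Npas2, against 14.9% of all genes. Npas2 was at 5.81, 4.17, 4.01 and 4.09 FPKM in WT and 1.68, 2.85, 3.39 and 2.84 FPKM with light, a change of -0.90 (SE 0.26, adjusted p = 0.0778). The same change was called when only these 2 groups were fitted (adjusted p = 0.00699), without untreated 5xFAD replicate 1 (0.0105) or 3 (0.0331), without the 3 libraries richest in choroid plexus markers (0.0303) and by DESeq2 (0.0159). Per1 was at 18.6, 23.3, 22.5 and 31.7 FPKM in WT and 14.8, 16.9, 15.6 and 12.3 FPKM with light (change -0.50, SE 0.22, adjusted p = 0.267). It too was called with the 2 groups alone (0.00749) and without untreated 5xFAD replicate 3 (0.0134). Nr1d1 had -0.32 (SE 0.14, adjusted p = 0.276), and the other 6 clock genes ran from -0.33 for Nr1d2 to 0.13 for Per3. The median of the 10 was -0.21, beside 0.00 over all genes.

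Usp2 moved the other way in this contrast and rose in light-treated hippocampus. It was at 44.5, 49.7, 35.9 and 53.8 FPKM in WT, 65.5, 55.4, 46.4 and 57.8 FPKM in untreated 5xFAD and 79.1, 91.0, 77.9 and 69.3 FPKM in light-treated mice. The light-treated mice lay above both other groups, and the change from WT was 0.65 (SE 0.12, adjusted p = 0.00470), called in every alternative run. It was the only one of the 18 further clock genes called by edgeR with all 3 groups fitted. Bhlhe40 (-0.45, adjusted p = 0.0907) and Csnk1e (0.27, adjusted p = 0.276) had an unadjusted p below 0.05, and Bhlhe40 was called by DESeq2 (0.034), with the 2 groups alone (0.00743) and without untreated 5xFAD replicate 3 (0.00601).

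Several glucocorticoid-response genes were also lower in light-treated hippocampus. The list was chosen with earlier results of these data known, so its counts are not independent support. The summed level of its 11 genes was 367 to 466 FPKM with light, 612 to 772 FPKM in untreated 5xFAD mice and 465 to 673 FPKM in WT. Mt2 was the largest part of that sum, with a hippocampal median of 266 FPKM. Its change with light was -0.73 against untreated 5xFAD mice and -0.09 against WT, neither called. Klf9 was at 0.04 and 0.01 in these comparisons. Against untreated 5xFAD mice 1 of 11 was called, and 6 had an unadjusted p below 0.05, all lower, beside 2382 of all 12981 genes at that p. The called gene was Sgk1, a kinase gene induced by corticosteroids, at 36.5, 37.9, 39.8 and 37.9 FPKM with light and 67.0, 73.5, 74.5 and 90.5 FPKM without (change -0.98, SE 0.18, adjusted p = 0.0482), without overlap. Its call was lost in 10 of 12 fits that left out 1 library, all but those without WT or untreated 5xFAD replicate 2, with adjusted p-values up to 0.177. Against WT 6 of 11 were called, beside 466 of all 12981 genes, and all 6 were lower: Sgk1 (-1.34), Tsc22d3 (-1.27), Nfkbia (-0.86), Errfi1 (-0.77), Ddit4 (-0.75) and Zbtb16 (-0.47). Against untreated 5xFAD mice Ddit4 (-0.22) and Zbtb16 (0.04) had no unadjusted p below 0.05, whereas Sgk1, Tsc22d3, Nfkbia and Errfi1 did. Between untreated 5xFAD and WT mice Ddit4 was already at -0.53 and Zbtb16 at -0.51. Sgk1 and Tsc22d3 were called in all 20 alternatives, whereas Ddit4 and Nfkbia each lost the call in 7, Zbtb16 in 4 and Errfi1 in 3 of the 12 fits that left out 1 library. Fkbp5 of the same list had no unadjusted p below 0.05 in hippocampus. Of the 8 activity genes none was called with light; against untreated 5xFAD mice Fosb, Fos, Egr1 and Junb had changes of -1.87, -0.91, -0.86 and -0.56 and Npas4 of 1.59, all at an unadjusted p below 0.05, with adjusted p-values of 0.121 to 0.203. Leptomeningeal fibroblast markers summed to 6.58 to 21.5 FPKM with light, under the 24.6 to 107 FPKM of untreated 5xFAD mice, and choroid plexus markers to 63.6 to 245 against 208 to 3216 FPKM. No marker of these lists was at 0 in all mice of a group, and their part in the clock gene differences was not tested beyond the fit without 3 libraries given above.

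**Figure D2:**
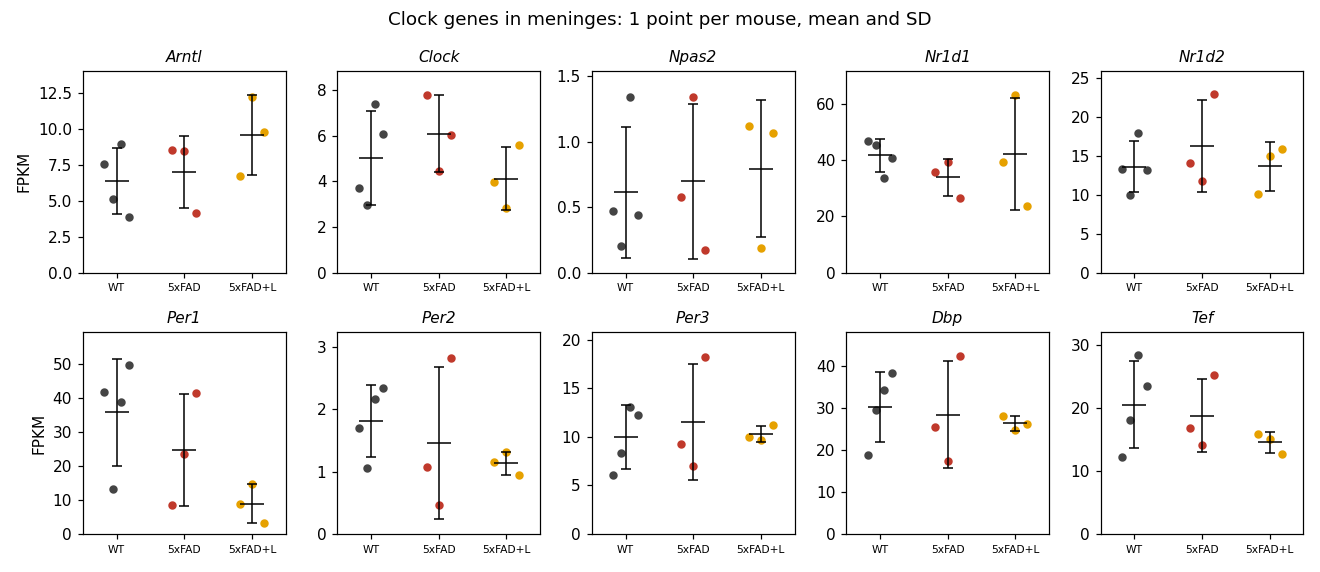
FPKM (vertical axes, from 0) of the 10 clock genes in meninges by group (4 WT, 3 5xFAD without light, 3 5xFAD+L), 1 point per mouse, with the mean and SD. Per1 of the light-treated mice lies at 3.20 to 14.6 FPKM, overlapping the lowest mouse of each other group, and the ranges of the 3 groups overlap for all 10 genes.

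In the meninges no clock gene was called in any comparison of the 3 groups, and no clock gene was free of overlap between 2 groups. Called genes were 0% of 14318 between untreated 5xFAD and WT mice and 0.014% both between light-treated and untreated 5xFAD mice and between light-treated 5xFAD and WT mice. Genes without overlap were 4.85%, 20.8% and 12.3% of all genes in these comparisons. At an unadjusted p below 0.05 stood 0, 1 and 1 clock genes, and DESeq2 called none of the 10. In simulated counts with the measured spread, set up for light-treated against untreated 5xFAD meninges, edgeR recovered 0 of 200 genes changed 2-fold. It recovered 157 of 200 changed 4-fold there, and 141 of 200 changed 2-fold in hippocampus. Not being called in meninges therefore does not show that a clock gene was unchanged.

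Per1 was that gene in both light comparisons. It was at 41.7, 13.3, 38.7 and 49.7 FPKM in WT, 8.61, 23.6 and 41.6 FPKM in untreated 5xFAD and 8.87, 14.6 and 3.20 FPKM in light-treated mice. The lowest WT mouse and the lowest untreated 5xFAD mouse lay inside the light-treated range. Against untreated 5xFAD mice the change was -1.65 (SE 0.60, adjusted p = 0.315) and against WT it was -2.12 (SE 0.59, adjusted p = 0.145). The first was -1.02 without untreated 5xFAD replicate 4, the mouse of that group with the highest Per1. The other 9 clock genes ran from -0.57 (Clock) to 0.46 (Arntl) and from -0.66 (Per2) to 0.60 (Arntl) in these contrasts. The median of the 10 was -0.20 and -0.10, beside 0.04 and 0.01 over all genes. Between untreated 5xFAD and WT meninges the 10 genes ran from -0.47 for Per1 to 0.50 for Npas2.

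Arntl, which had differed between groups in hippocampus, was at 7.59, 5.15, 8.94 and 3.90 FPKM in WT, 8.52, 8.47 and 4.13 FPKM in untreated 5xFAD and 6.71, 12.3 and 9.83 FPKM in light-treated meninges. The 3 groups overlapped. The output gene Dbp was at 24.7 to 28.1 FPKM with light, inside the 17.4 to 42.4 FPKM of untreated 5xFAD and the 18.9 to 38.4 FPKM of WT mice.

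Of the 18 further clock genes, 4 were lower in light-treated meninges than in WT at an unadjusted p below 0.05 and none was called by edgeR: Usp2 (-1.83, SE 0.35, adjusted p = 0.0854), Ciart (-2.13, SE 0.55, adjusted p = 0.142), a repressor of the ARNTL complex, Nfil3 (-1.43, SE 0.39, adjusted p = 0.144), which opposes DBP and TEF at D-boxes, and Csnk1e (-1.10, SE 0.29, adjusted p = 0.142). DESeq2 called all 4, with adjusted p-values of 3.06e-05 for Usp2, 0.00452 for Ciart, 0.0133 for Nfil3 and 0.0207 for Csnk1e. How many of all genes DESeq2 called in this comparison is not given here, so these calls cannot be set against a share. In edgeR Usp2 and Csnk1e were called without WT meninges replicate 2 (0.0202 and 0.0296), and Usp2 also with no filter on low values (0.0420). Ciart was at 14.5, 8.34, 13.7 and 17.0 FPKM in WT and 5.75, 3.19 and 2.37 FPKM with light, without overlap. Against untreated 5xFAD mice Usp2 (-1.19) and Csnk1e (-0.69) had negative changes and Btrc (0.57) a positive one at an unadjusted p below 0.05.

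Beside Per1, the 2 genes called among all 14318 in each light comparison of the meninges were both from the glucocorticoid list. That list was chosen with earlier results of these data known, so their place on it and its counts are not independent support. Fkbp5, which encodes a glucocorticoid receptor co-chaperone, was at 5.13, 3.99 and 3.52 FPKM with light and 24.5, 34.2 and 18.5 FPKM in untreated 5xFAD mice (change -2.57, SE 0.29, adjusted p = 0.00748). Zbtb16, a transcription factor gene induced by glucocorticoids, was at 2.46, 3.51 and 1.36 FPKM with light and 12.2, 14.2 and 9.51 FPKM without (change -2.46, SE 0.31, adjusted p = 0.0125). Fkbp5 lost this call without light-treated replicate 2 or 4, and Zbtb16 without any 1 of the 3 light-treated mice or of untreated 5xFAD replicates 1 and 2, with adjusted p-values up to 0.115. Of the 11 genes of that list 8 had an unadjusted p below 0.05 between light-treated and untreated 5xFAD meninges, all lower, beside 1822 of all 14318 genes at that p, and the summed level was 475 to 684 FPKM with light, 768 to 1360 FPKM in untreated 5xFAD and 806 to 2049 FPKM in WT mice. Pineal markers, which mark a gland with a strong daily rhythm, summed to 276 to 755 FPKM with light, 82.3 to 482 FPKM in untreated 5xFAD and 263 to 577 FPKM in WT mice. The part of either list in the Per1 difference was not tested.

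**Figure D3:**
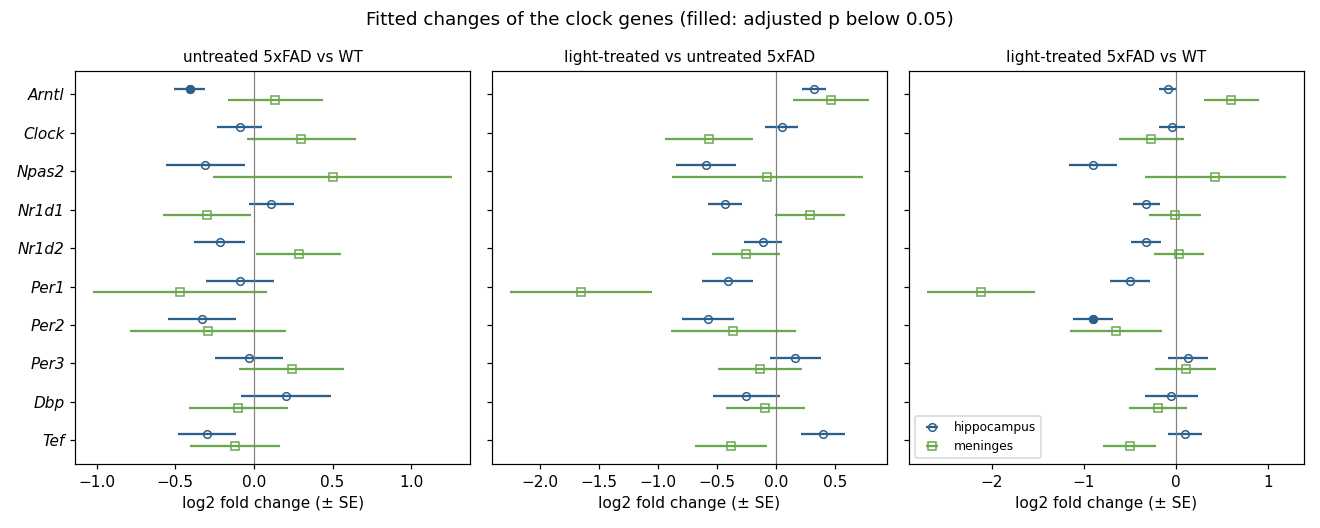
Fitted log2 fold changes (horizontal axes, with SE) of the 10 clock genes in hippocampus (circles) and meninges (squares) for the 3 comparisons of groups, filled where the adjusted p was below 0.05. Filled points are Arntl at -0.41 (untreated 5xFAD vs WT) and Per2 at -0.91 (light-treated 5xFAD vs WT), both in hippocampus, and the widest changes are those of Per1 in meninges with light.

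Whether an effect differed between the 2 tissues was tested in 1 fit of the 22 hippocampus and meninges samples, which pools their spread. No clock gene was called for a different effect of light, against 1.05% of 15132 genes. None was called for a different effect of the 5xFAD transgenes, against 1.74%. The Arntl effect of 5xFAD was 0.52 higher in meninges (SE 0.30, adjusted p = 0.514). Tef (-0.81, SE 0.36, adjusted p = 0.222) and Nr1d1 (0.71, SE 0.33, adjusted p = 0.235) had an unadjusted p below 0.05 for the effect of light, and no clock gene had one for the effect of 5xFAD. Tef was at -0.49 without untreated 5xFAD meninges replicate 4 and Nr1d1 at 0.37 without light-treated meninges replicate 2. DESeq2 also called none of the 10 in either test.

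Usp2 was the 1 further clock gene whose light effect differed between the tissues. Neither effect was itself called against untreated 5xFAD mice, at 0.49 in hippocampus (adjusted p = 0.0760) and -1.19 in meninges (adjusted p = 0.286). In meninges it was at 73.4, 47.3, 89.9 and 90.7 FPKM in WT, 30.2, 48.8 and 53.8 FPKM in untreated 5xFAD and 21.4, 34.7 and 15.0 FPKM in light-treated mice. One untreated 5xFAD mouse lay within the light-treated range, whereas in hippocampus the light-treated mice lay above all others. The difference of the 2 light effects, meninges minus hippocampus, was -1.70 (SE 0.37, adjusted p = 0.0398). Leaving out 1 of the 22 libraries gave -1.92 to -1.44, and 11 of these 22 fits lost the call (adjusted p up to 0.0949).

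**Figure D4:**
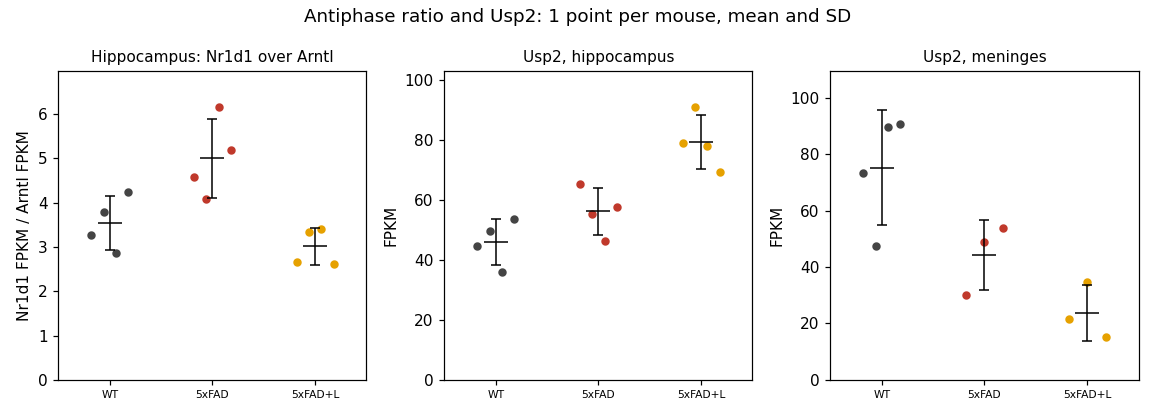
Ratio of Nr1d1 to Arntl FPKM in hippocampus (left) and FPKM of Usp2 in hippocampus (middle) and meninges (right) by group, 1 point per mouse with the mean and SD, all axes from 0. The ratio is 4.09 to 6.16 in untreated 5xFAD and 2.62 to 3.41 in light-treated mice, and light-treated Usp2 is 69.3 to 91.0 FPKM in hippocampus and 15.0 to 34.7 FPKM in meninges.

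Activators and repressors of the clock run in antiphase over a day, so Arntl was correlated with the other clock genes over all samples of a tissue, on log2(FPKM + 1). Over 25 pairs in the 3 tissues (9, 9 and 7), none passed an adjusted p below 0.05, by r or by rho, in a two-sided permutation test with 100000 resamples. In hippocampus (n = 12) Pearson's r ran from -0.14 (Nr1d1) to 0.60 (Tef, permutation p = 0.0310, adjusted p = 0.258), with Spearman's rho of 0.54 for Tef (permutation p = 0.0754, adjusted p = 0.377). Without the 2 samples farthest from the Arntl median the r of Tef was 0.26 (n = 10). Leaving them out also narrows the range of Arntl, so whether the relation rested on those samples was not settled. In meninges (n = 10) the lowest r was that of Dbp, an antiphase partner of Arntl, at -0.62 (permutation p = 0.0548, adjusted p = 0.274; rho -0.55, p = 0.104, adjusted p = 0.432). It was -0.56 without the 2 farthest samples and -0.65 after group means were subtracted. Pairs with Per1, Per2, Per3 and Tef had r of -0.52 to -0.39 in meninges and of -0.02 to 0.60 in hippocampus. In mLEC (n = 10), where zeros set much of the spread, r ran from -0.83 (Per1, adjusted permutation p = 0.0520) to 0.65; the rho of Per1 was -0.85 (adjusted p = 0.0770), and -0.88 (adjusted p = 0.0447) on log2 CPM with TMM scaling. The correlations of Arntl with Nr1d1 were -0.14 in hippocampus and 0.21 in meninges.

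The genes whose pattern over samples was most like that of Dbp and Arntl were taken by the highest Pearson r of log2(FPKM + 1) over all genes tested in the tissue, and genes of 1 library share its depth and cell makeup. For Dbp in hippocampus (n = 12) they were Asic1 (r = 0.95), Mxi1 (0.95), Ptprt (0.93), Ephx4 (0.93) and Hlf (0.93), the last being the third factor of the family of Dbp and Tef. With group means subtracted they stood at 0.94 to 0.96. For Dbp in meninges (n = 10) they were Cdc14a (0.93), Per3 (0.90), Olfr122 (0.90), Aff3 (0.90) and Ust (0.89), with Per3 at 0.96 after centring. Arntl was most like Ebag9 (0.94), Washc5 (0.93), Secisbp2l (0.92) and Slitrk2 (0.92) in hippocampus, and these 4 stood at 0.79 to 0.90 after centring. In meninges it was most like Gpat3 (0.98), 1110051M20Rik (0.94), Klhl12 (0.94), D030056L22Rik (0.94) and Krt222 (0.93). No gene of the core loop was among those most like Arntl in either tissue. Only the highest positive r were taken, so genes running in antiphase to Arntl could not enter.

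In sorted mLEC the clock genes were present in some libraries and at or near 0 in others, so each library is given. The lymphatic label was checked first with 6 markers, which summed to 1155 to 9718 FPKM in 8 libraries and to only 38.0 and 55.7 FPKM in WT replicates 2 and 4, and these 2 libraries thus stood apart from their label. Median levels in mLEC were 3552 FPKM for Ccl21a, 93.3 for Mmrn1 and 30.2 for Flt4. Those of Lyve1, Pdpn and Prox1 were only 7.88, 3.12 and 1.14 FPKM. The sum thus rested mainly on Ccl21a. Pdpn, the gene of the sorting marker podoplanin, had a higher median in meninges (87.7 FPKM), so the sum does not settle the label of the 8 libraries. Arntl was at 92.7, 0.05, 7.94 and 13.8 FPKM in WT, 18.4, 56.7 and 38.1 FPKM in untreated 5xFAD and 2.40, 12.7 and 1.49 FPKM in light-treated mLEC. All 3 light-treated libraries lay below all 3 untreated 5xFAD libraries and inside the WT range. Nr1d1 was at 0.0200, 0.0200, 49.1 and 15.8 FPKM in WT, 54.7, 6.55 and 4.66 FPKM in untreated 5xFAD and 0.240, 0.0300 and 0.240 FPKM in light-treated mLEC, again with no overlap between the 2 5xFAD groups.

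Tef was listed at 0 in all 4 WT libraries, at 9.99, 2.72 and 8.02 FPKM in untreated 5xFAD and at 0, 9.15 and 0 FPKM in light-treated libraries. Dbp was listed at 0 in all 3 light-treated libraries, in untreated 5xFAD replicates 1 and 2 and in WT replicates 2 and 3, and stood at 42.6, 11.0 and 19.5 FPKM in WT replicates 1 and 4 and untreated 5xFAD replicate 4. Such a pattern of high values and zeros within 1 group says how variable these libraries were: their detected genes numbered 5998 to 9020, against 16371 to 19769 in the other tissues. Per3 was above 0 in all libraries of 5xFAD mice, at 2.53 to 7.32 FPKM over 6 libraries, while WT libraries ran from 0 to 18.7 FPKM. Clock was at 1.64 to 18.3 FPKM in the 6 libraries of 5xFAD mice and at 0.580, 0.0200, 0.500 and 13.1 FPKM in WT. Nr1d2 ran from 0 to 26.0 and Per1 from 0 to 16.3 FPKM over the 10 libraries. Npas2 did not exceed 0.140 FPKM in any library, and Per2 was above 0.0100 FPKM in 1 library, light-treated replicate 3, at 14.2 FPKM.

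**Figure D5:**
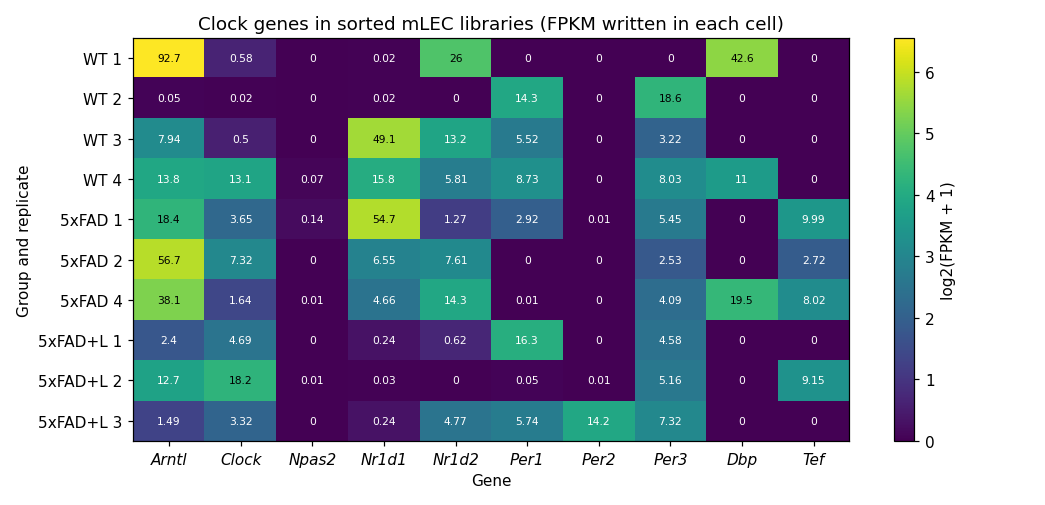
FPKM of the 10 clock genes (columns) in each of the 10 sorted mLEC libraries (rows, group and replicate number), with colour for log2(FPKM + 1). Values of 0 stand beside values above 10 FPKM within 1 group, as for Dbp in WT.

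No clock gene was called in mLEC by edgeR, against 0% of 8188 genes between light-treated and untreated 5xFAD mice, 0% between untreated 5xFAD and WT and 0.0122% between light-treated 5xFAD and WT. Genes at an unadjusted p below 0.05 numbered 328, 312 and 550, and among clock genes 1 (Nr1d1), 1 (Tef) and 2 (Tef and Nr1d1). Clock genes without overlap were 2 of 8 (Arntl and Nr1d1), 1 of 8 (Tef) and 0 of 8, against 10.1%, 6.23% and 5.67% of all genes. DESeq2 called Nr1d1 and Dbp between light-treated and untreated 5xFAD mLEC, Tef between untreated 5xFAD and WT and all 3 between light-treated 5xFAD and WT, against 4.73%, 2.45% and 6.15% of the genes it tested. The calls of Dbp and Tef rest on a group listed at 0 in all or most libraries, so no fold is given. Without WT replicates 2 and 4 edgeR also called no clock gene in mLEC. In simulated mLEC counts for light-treated against untreated 5xFAD mice, edgeR recovered 0 of 200 genes changed 4-fold. The absence of calls in mLEC therefore does not show that clock genes were unchanged. Neuron, astrocyte and pineal markers were at or near 0, with sums of 0 to 1.16, 0 to 12.4 and 0 FPKM. Other lists were not near 0 throughout. Blood endothelium markers summed to 723 to 2533 FPKM, but they include Pecam1 (189 to 398 FPKM), the gene of the sorting marker CD31. Leptomeningeal fibroblast markers summed to 14.0 to 612 FPKM and choroid plexus markers to 0 to 563 FPKM. The highest fibroblast and choroid plexus sums were almost all Dcn (612 FPKM) and Ttr (563 FPKM). Fmod reached 74.3 FPKM and Col1a1 only 0.29 FPKM, and Lum, Folr1 and Kcnj13 were at 0 in all libraries. Mural cell markers summed to 25.3 to 388 FPKM in untreated 5xFAD, 0.11 to 55.4 FPKM in light-treated and 0.15 to 44.6 FPKM in WT libraries. Of these, Acta2 reached 377 FPKM, whereas Kcnj8, Myh11 and Pdgfrb did not exceed 38.5, 7.81 and 6.11 FPKM. The part of these lists in the Arntl and Nr1d1 differences was not tested. The mLEC table was made apart from that of the other tissues, and no test was run between them.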

How the data were processed

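Samples were grouped by the labels. The authors deposited estimated counts per gene (RSEM expected counts, not normalized) and FPKM values, in 1 table for hippocampus and meninges and 1 for mLEC. The methods name fastp, RSEM and DESeq2, whereas the submitters' processing notes name Trimmomatic, HISAT2, StringTie, DESeq2 and mm10; which made these tables was not settled. Libraries were made with Smart-seq2, and the strand used in counting is not stated. Tests ran on rounded counts in edgeR 4.0.16 (TMM scaling, R 4.3.3), with DESeq2 1.42.0 and limma 3.58.1 as alternatives, after tests on simulated data. Fold changes, SE and adjusted p-values are given for clock genes with an unadjusted p below 0.05. Symbols were taken from the mLEC table. Correlation p-values were adjusted over 25 pairs, as 2 genes were under the filter in mLEC. The p-values measure the spread between mice. Genes and lists were chosen with earlier results of these data known. Replicate numbers did not pair the samples: deviations of same-numbered hippocampi correlated from -0.24 to 0.09. Some genes of the lists are not reported here.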

Additional observations from a re-analysis of the deposited data

Results flagged for a closer look

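Among 48 sets of 4 samples of 1 gene and 1 group, 5 held a mouse whose gap to its nearest neighbour was beyond Dixon's limit; chance gives about 1 in 20. In WT hippocampus, Dbp (9.05 FPKM) and Tef (25.8 FPKM) were low in replicate 3, the other mice being at 13.3 to 14.2 and 36.2 to 37.7 FPKM, and Npas2 was high in replicate 1 (5.81 FPKM, others 4.01 to 4.17). In WT mLEC, Arntl was high in replicate 1 (92.7 FPKM, others 0.05 to 13.8) and Clock in replicate 4 (13.1 FPKM, others 0.0200 to 0.580).

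Usp2 had a light effect that differed between meninges and hippocampus by -1.70 on the log2 scale (adjusted p = 0.0398 in edgeR), in a test of the difference itself. The 3 light-treated meninges had the lowest mean of the meningeal groups and the 4 light-treated hippocampi the highest of the hippocampal groups.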

How the results depend on the processing

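Among changes with an unadjusted p below 0.05, the ones recomputed singly, none reversed in any alternative run. Of the 10 clock genes, the number called in hippocampus between untreated 5xFAD and WT mice was 1; it was 0 with the replicate block (Arntl, adjusted p = 0.0538), with a 2-fold limit and without the 3 libraries richest in choroid plexus markers, a choice made after seeing the data, and 0 to 2 when 1 mouse was left out. Between light-treated 5xFAD and WT hippocampus it was 1; it was 3 with the 2 groups alone, 2 with DESeq2 and without those 3 libraries, 0 with limma on log2(FPKM + 1), with the replicate block (Per2, adjusted p = 0.0512) and with a 2-fold limit, and 0 to 3 when 1 mouse was left out. Between light-treated and untreated 5xFAD hippocampus it was 0, and 1 with DESeq2. Between WT meninges and hippocampus it was 5, 2 with a 2-fold limit and 4 to 6 when 1 mouse was left out. In mLEC DESeq2 called 2, 1 and 3 where edgeR called 0. The other counts of called clock genes, and of Arntl pairs called by Pearson's r, were 0 in all alternatives run; by rho 1 pair was called, Per1 in mLEC on the TMM scale (adjusted p = 0.0447). The light effect of Usp2 in the 2 tissues lost its call with limma (-1.40, adjusted p = 0.0666), with the replicate block (-1.66, adjusted p = 0.0786) and in 11 of 22 fits that left out 1 library. The cause of these changes was not tested. Numbers of called genes over all genes were 59, 1108 and 466 in hippocampus by edgeR, and 641, 1721 and 873 by DESeq2. Same-numbered samples did not meet the limit for pairing (0 of 12 correlations over 0.1 in hippocampus, 2 of 9 in meninges, 0 of 8 in mLEC); between hippocampus and meninges 3 of 10 were over 0.1 (-0.06 to 0.22), and whether a number marks the same mouse there is not given in the sources used here. With the block the meninges calls of Fkbp5 and Zbtb16 were also lost. Depth limits Npas2 in meninges (7 to 67 counts). In mLEC the spread between libraries of 1 group is the limit, not the total count.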
